A study of Homo sapiens with 12 samples.

Results

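HRSP12, BANF1, DDT, TMEM256 and PDZD11 are 5 human mRNAs that were scarce in RNA purified together with a fragment of the protein TNIP2. They were chosen from 25369 genes in the table as mRNAs with about 10-fold or more loss in TNIP2 Pulldown libraries, either against Control Pulldown libraries or in the difference of enrichments. Other protein-coding genes past that limit were not among the 5 and are named below. The difference of enrichments is the log2 change of Pulldown over Input with the TNIP2 fragment minus the same change with the tag alone. All 5 were among the 14627 genes that passed a filter on low values.

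The cells were HEK293T, a transfectable line derived from human embryonic kidney, which the growth conditions name HEK293. Plasmids expressed Halo-TNIP2 196-346, that is the Halo tag joined to residues 196 to 346 of TNIP2, or the Halo tag alone (Control). RNA was taken from 90 µl of Halo-purified material (Pulldown) or from 100 µl of whole cell extract (Input), and ribosomal RNA was removed from all samples. The 4 groups, with 3 libraries in each, were TNIP2 Pulldown, TNIP2 Input, Control Pulldown and Control Input. The fragment is a part of TNIP2 made from a plasmid in cells that keep their own TNIP2 gene. No label says that the libraries came from separate transfections. In the main fit, the spread behind each p-value and SE is that among libraries of the same group, pooled over the 4 groups. It may be no more than technical.

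TNIP2, also called ABIN-2, is a ubiquitin-binding adaptor of inflammatory signalling that interacts with A20 and with the kinase TPL-2. The Halo tag is an enzyme domain that attaches covalently to a ligand on a resin, so that a tagged protein and whatever stays with it can be recovered. A pulldown on the tag alone measures the RNA that comes along without the fused protein, and the extract measures the RNA on offer.

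The recovered read totals were 10309150 to 29510349 in TNIP2 Pulldown, 8894252 to 16748897 in TNIP2 Input, 3590874 to 6403539 in Control Pulldown and 13786862 to 20776328 in Control Input. TNIP2 itself was higher in TNIP2 Pulldown than in Control Pulldown by a log2 fold change of 7.30, and in TNIP2 Input than in Control Input by 6.26, with all 6 libraries of fragment-expressing cells above all 6 libraries of tag-only cells. Of 5 genes taken for embryonic kidney and neural cells, 4 reached a mean FPKM (fragments scaled by transcript length and by library) of 1, namely EYA1, LHX1, NEFL and NEFM. Their list summed to 89.8 to 139 FPKM in TNIP2 Pulldown, 15.4 to 37.9 in TNIP2 Input, 29.7 to 30.2 in Control Pulldown and 24.4 to 30.3 in Control Input, and the part of this difference in the members' loss was not tested. None of the listed blood, fibroblast or endothelial genes reached that level, and CD3E and HBB were at 0 in every library. Of 3 epithelial genes, EPCAM and CDH1 reached it, and that list summed to 2.96 to 5.02 FPKM in TNIP2 Pulldown, 2.54 to 3.67 in TNIP2 Input, 2.74 to 4.35 in Control Pulldown and 3.17 to 4.62 in Control Input. The third TNIP2 Pulldown and the third TNIP2 Input libraries stood apart from the others on the second principal component, at 47.8 and 54.7 against -25.7 to 2.84. Values without either of them are given for the members, for named genes and for the gene lists.

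The 5 proteins do unrelated work. HRSP12, now named RIDA, hydrolyses reactive imine intermediates of amino acid metabolism, and in human cells it has also been described as a link between YTHDF2 and the RNase P/MRP ribonucleases. DDT, D-dopachrome tautomerase, is the relative of the cytokine MIF. BANF1 is the barrier-to-autointegration factor, a small DNA-binding protein that joins chromatin to LEM-domain proteins of the nuclear envelope. PDZD11 is a PDZ-domain adaptor that binds PLEKHA7 and the copper pump ATP7A. TMEM256 is a small protein with predicted membrane spans.

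The values of HRSP12 were 35, 23 and 36 normalized counts in TNIP2 Pulldown, 450, 379 and 508 in TNIP2 Input, 593, 569 and 551 in Control Pulldown, and 544, 523 and 520 in Control Input. The 3 TNIP2 Pulldown libraries lay far below the other 9. The means were 31.3 ± 7.23 in TNIP2 Pulldown and 571 ± 21.1 in Control Pulldown (SD, n = 3 each). The normalized level in the fragment's pulldown was thus 5.49% of the control's. The log2 fold change was -4.17 (SE 0.19) against Control Pulldown and -3.91 (SE 0.26) as the difference of enrichments. By the first measure HRSP12 ranked 5 from the lowest of the 14627 genes. Its TNIP2 Pulldown level rests on 111 recovered reads in all, with an exact Poisson 95% interval of 91.3 to 134 that covers counting error only.

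The second metabolic gene, DDT, had 108, 63 and 101 normalized counts in TNIP2 Pulldown, 960, 705 and 1229 in TNIP2 Input, 994, 880 and 881 in Control Pulldown, and 1108, 995 and 717 in Control Input. No TNIP2 Pulldown library came near any other library, although the 2 Input groups varied more than Control Pulldown did. DDT averaged 90.7 ± 24.2 in TNIP2 Pulldown and 918 ± 65.5 in Control Pulldown (SD, n = 3 each), a log2 fold change of -3.36 (SE 0.24). The difference of enrichments was -3.39 (SE 0.34).

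For BANF1, the nuclear envelope gene, the values were 39, 45 and 72 normalized counts in TNIP2 Pulldown, 455, 490 and 173 in TNIP2 Input, 341, 396 and 351 in Control Pulldown, and 110, 278 and 299 in Control Input. The TNIP2 Pulldown libraries were again the lowest, but the third TNIP2 Input and the first Control Input libraries were low as well. These gave coefficients of variation of 46.6% in TNIP2 Input and 45.2% in Control Input, against 8.08% in Control Pulldown. The low values rest on 143 reads in the third TNIP2 Input library (exact Poisson 95% interval 121 to 168) and on 206 reads in the first Control Input library (interval 179 to 236). BANF1 averaged 52 ± 17.6 in TNIP2 Pulldown and 363 ± 29.3 in Control Pulldown (SD, n = 3 each), with a log2 fold change of -2.82 (SE 0.40), and it reached 10-fold only as the difference of enrichments, at -3.51 (SE 0.57). That difference was -4.00 without the third TNIP2 Input library and -3.05, which is under 10-fold, without the first Control Input library. Both SEs rest on a spread pooled over the 4 groups, so they include the variable Input libraries.

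TMEM256 had 90, 53 and 54 normalized counts in TNIP2 Pulldown, 700, 593 and 541 in TNIP2 Input, 642, 660 and 652 in Control Pulldown, and 843, 654 and 681 in Control Input. The control pulldowns lay within a few counts of each other, while the first TNIP2 Pulldown library stood above the other 2 of its group. TMEM256 averaged 65.7 ± 21.1 in TNIP2 Pulldown and 651 ± 9.02 in Control Pulldown (SD, n = 3 each), a log2 fold change of -3.33 (SE 0.20), with a difference of enrichments of -3.09 (SE 0.28).

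The junction adaptor PDZD11 had 45, 27 and 49 normalized counts in TNIP2 Pulldown, 377, 347 and 340 in TNIP2 Input, 412, 436 and 351 in Control Pulldown, and 374, 377 and 427 in Control Input. The other 9 libraries lay close together and well above the TNIP2 Pulldown libraries. PDZD11 averaged 40.3 ± 11.7 in TNIP2 Pulldown and 399.7 ± 43.8 in Control Pulldown (SD, n = 3 each), a log2 fold change of -3.32 (SE 0.21) and a difference of enrichments of -3.17 (SE 0.29). Without the second TNIP2 Pulldown library the first of these was -3.06.

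**Figure D1:**
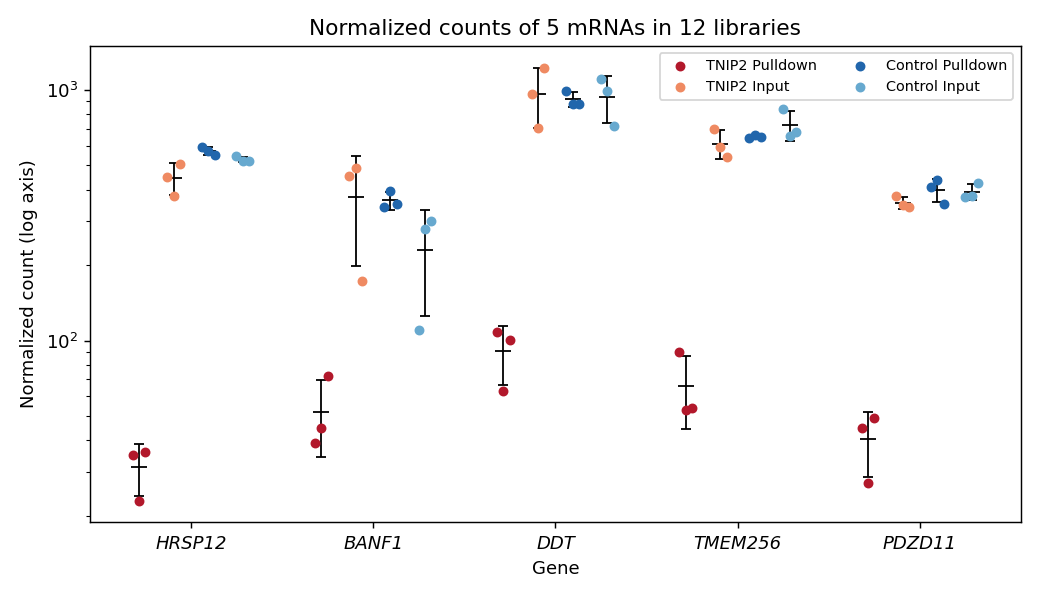
Normalized counts (log axis) of the 5 mRNAs, with 1 point per library and bars for the mean ± SD of 3 libraries. The TNIP2 Pulldown points of HRSP12 (23 to 36) and the other 4 genes lie below all other points of the same gene, and BANF1 has a low TNIP2 Input point at 173 and a low Control Input point at 110.

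These levels chose the members, so they are descriptions and carry no test. Seen over all genes tested, 0.123% were 10-fold or more lower in TNIP2 Pulldown than in Control Pulldown and 0.164% in the difference of enrichments, that is 18 and 24 genes, of which 8 and 10 were annotated as protein-coding. Those that are not members were SELM (-3.84), LINC00998 (-3.77), PRAC2 (-3.59), C9orf16 (-3.52) and SEC11C by the first measure. By the second they were the same genes with ANKRD30BL (-3.57) and C4orf48. PRAC2 and ANKRD30BL were low, with Control Pulldown means of 24.3 and 14.3. By the first measure SEC11C (-3.40), DDT and TMEM256 lay just inside that limit, and PDZD11, TMEM147 (-3.23) and C4orf48 (-3.23) just outside. By the second, C4orf48 (-3.46), SEC11C (-3.43) and DDT lay just inside, and FKBP2 (-3.30), TMEM160 (-3.22) and PDZD11 just outside. HRSP12 and DDT thus passed by both measures, TMEM256 by the first and BANF1 by the second, while PDZD11 fell short of both by a small margin. Without the second TNIP2 Pulldown library DDT (-3.12 and -3.15) and TMEM256 (-3.20 by the first measure) were short of 10-fold too, as they were with a pseudocount of 8 (DDT -3.26 and -3.29, TMEM256 -3.20). HRSP12 stayed past the limit by both measures with each library left out in turn and with that pseudocount.

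Pulldown against Input with the fragment shares its Pulldown libraries with the choice, and is also given as a description. Every TNIP2 Pulldown library lay below every TNIP2 Input library for all 5 genes, where 28.1% of genes tested did so, and likewise below every Control Pulldown library, where 29.5% did so. The log2 fold changes were -3.80 (SE 0.19) for HRSP12, -3.40 (0.24) for DDT, -3.24 (0.20) for TMEM256, -3.15 (0.21) for PDZD11 and -2.73 (0.40) for BANF1. The median of the 5 was -3.24, beside 0.01 over all genes tested. Between libraries of the same number, HRSP12 in TNIP2 Pulldown was lower than in TNIP2 Input by 12.9-, 16.5- and 14.1-fold. BANF1 was lower by 11.7-, 10.9- and 2.40-fold, so the third pair stood apart. Leaving out the third TNIP2 Input library moved the BANF1 log2 fold change to -3.21 and left HRSP12 at -3.71, DDT at -3.21, TMEM256 at -3.32 and PDZD11 at -3.18. Without the third TNIP2 Pulldown library, the log2 fold changes against Control Pulldown were -4.28 for HRSP12, -3.08 for BANF1, -3.46 for DDT, -3.22 for TMEM256 and -3.47 for PDZD11.

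Control Pulldown against Control Input involves no fragment and sets the normalized levels of these mRNAs with the tag alone beside those in the extract. Normalized counts give levels relative to the other genes of a library, not the amount of RNA recovered. Both groups enter the difference of enrichments that took part in choosing the members, so these values too are descriptions with no test. The log2 fold changes were 0.11 (SE 0.19) for HRSP12, -0.01 (0.24) for DDT, 0.79 (0.40) for BANF1, -0.15 (0.20) for TMEM256 and 0.02 (0.21) for PDZD11, with a median of 0.02 beside -0.01 over all genes tested. HRSP12 and BANF1 were higher in every Control Pulldown library than in every Control Input library, as were 5.83% of genes tested. The BANF1 log2 fold change, which is a part of its difference of enrichments, was 0.33 without the first Control Input library and 1.04 without the third.

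TNIP2 Input against Control Input gives the normalized level of these mRNAs in the extract of cells with the fragment relative to cells with the tag. These groups entered the choice through the same difference, and no test is given. The log2 fold changes were -0.26 (SE 0.19) for HRSP12, 0.02 (0.24) for DDT, 0.69 (0.40) for BANF1, -0.25 (0.20) for TMEM256 and -0.15 (0.21) for PDZD11. HRSP12 was lower in every TNIP2 Input library than in every Control Input library, as were 5.32% of genes tested, and its value was -0.36 without the third TNIP2 Input library. The BANF1 value depended on single libraries, at 0.23 without the first Control Input library and 1.17 without the third TNIP2 Input library. The 5 values ran between -0.26 and 0.69, against -4.17 to -2.82 for TNIP2 Pulldown over Control Pulldown.

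**Figure D2:**
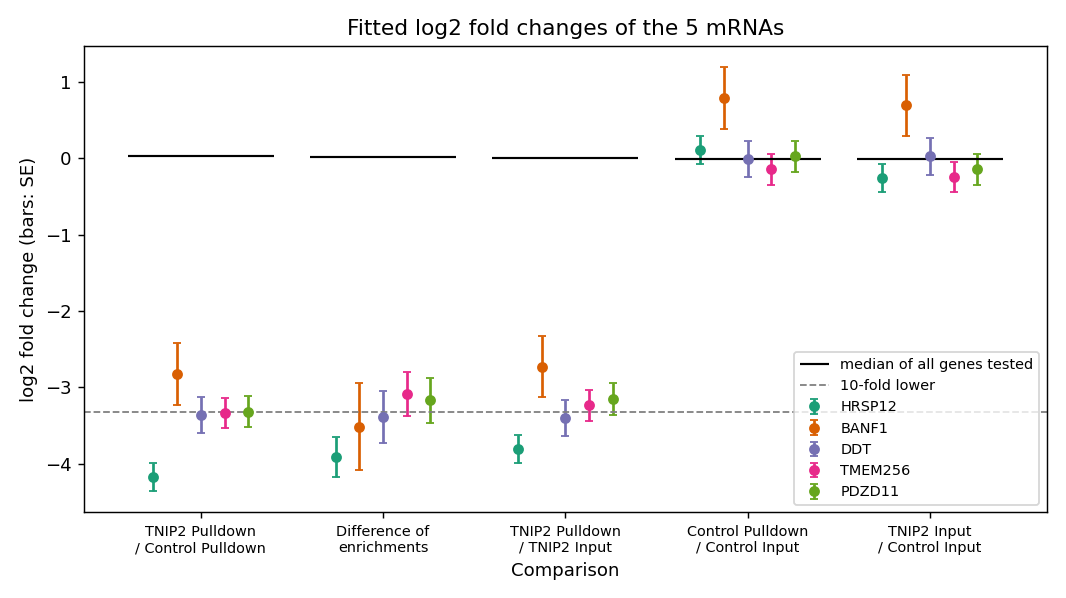
Fitted log2 fold changes of the 5 mRNAs (points, with SE bars) in 5 comparisons, with the median of all genes tested (black lines) and the 10-fold limit (dashed). The first 3 comparisons, which share the TNIP2 Pulldown libraries, have member medians of -3.33, -3.39 and -3.24, and the 2 without them have 0.02 and -0.15.

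The 5 mRNAs differed in abundance. Per length, the mean TNIP2 Pulldown level was 11.96 FPKM for TMEM256, 11.0 for DDT, 3.98 for BANF1, 2.83 for PDZD11 and 2.72 for HRSP12. In Control Input the means were 133 FPKM for TMEM256, 114 for DDT, 46.0 for HRSP12, 27.7 for PDZD11 and 17.4 for BANF1, beside a median of 7.79 over the genes tested. HRSP12 thus ranked below PDZD11 and BANF1 in the fragment's pulldown and above both in the control extract. In TNIP2 Pulldown the means of PDZD11 and HRSP12 differed by less than their SD. Within TNIP2 Pulldown, the second library was the lowest of the 3 for HRSP12, DDT, PDZD11 and, by a single count, TMEM256, whereas for BANF1 the first was the lowest.

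All 5 transcripts were short. The exonic length that the FPKM values imply was 481 bases for TMEM256, 723 for DDT, 1011 for HRSP12, 1153 for BANF1 and 1246 for PDZD11, against a median of 3194 for the genes tested, and all 5 belonged to the shortest of 5 equal bins of genes. That bin (43 to 1806 bases, 2926 genes) had a median log2 fold change of TNIP2 Pulldown over Control Pulldown of -0.22, with 26.2% of its genes called higher and 37.8% lower. In the bin of the longest genes the median was 0.38, with 42.9% higher and 17.1% lower. Of the 18 genes at 10-fold or more loss, 17 were in the shortest bin and 0 in the longest, but only 8 of the 18 were annotated as protein-coding. Losses of 4-fold or more were found for 226 genes (7.72%) of the shortest bin and 17 (0.581%) of the longest. The part of length in the members' loss was not tested.

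**Figure D3:**
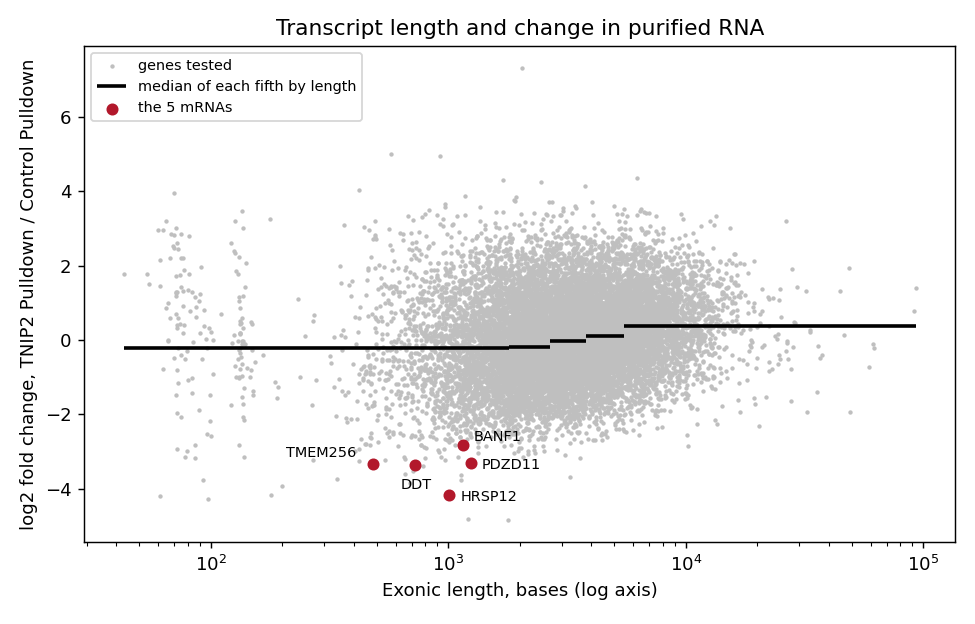
Log2 fold change of TNIP2 Pulldown over Control Pulldown against exonic length (log axis) for each gene tested (grey), with the 5 mRNAs in red and the median of each of 5 equal bins by length as black lines. The median is -0.22 in the shortest bin and 0.38 in the longest, and the 5 mRNAs lie at 481 to 1246 bases, far below the median of their bin.

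The promoters of 4 of these genes are shown as a description, and that of HRSP12 was not searched. The members were chosen for a shared loss, and any part of the promoters in it was not tested. The 150 bases before the annotated start are from RefSeq on build GRCh38.p14, printed 5′ to 3′ on the gene's strand for the 4 genes below, with matches to the motifs searched in capitals. The motifs were the GC box GGGCGG, the CCAAT box CCAAT, the TATA box TATAAA, the ETS motif CCGGAAG, the NRF1 half-site GCGCATG and the YY1 core ATGGCGG, each on both strands.
BANF1, chr11:66002353-66002502, plus strand: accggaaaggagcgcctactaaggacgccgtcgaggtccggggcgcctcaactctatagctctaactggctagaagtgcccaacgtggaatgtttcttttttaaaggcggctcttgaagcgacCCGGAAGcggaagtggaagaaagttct
DDT, chr22:23980505-23980654, minus strand: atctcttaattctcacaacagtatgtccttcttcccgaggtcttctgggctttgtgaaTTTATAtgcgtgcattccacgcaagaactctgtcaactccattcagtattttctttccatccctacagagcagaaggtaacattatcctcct
TMEM256, chr17:7404098-7404247, minus strand: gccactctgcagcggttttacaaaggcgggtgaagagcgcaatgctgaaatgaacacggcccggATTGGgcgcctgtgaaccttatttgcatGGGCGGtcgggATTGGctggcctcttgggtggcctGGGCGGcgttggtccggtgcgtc
PDZD11, chrX:70289928-70290077, minus strand: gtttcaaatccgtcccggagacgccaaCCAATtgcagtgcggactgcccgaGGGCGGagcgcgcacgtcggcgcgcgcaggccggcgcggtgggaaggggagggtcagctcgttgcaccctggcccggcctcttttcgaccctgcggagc
No motif was found in all 4 promoters. GC and CCAAT boxes were in TMEM256 and PDZD11, as in 36.8% and 23.5% of the 34762 RefSeq promoter windows of the same length. A reverse-strand TATA match was in DDT (6.74% of windows) and an ETS match in BANF1 (6.84%), while the NRF1 half-site (2.87%) and the YY1 core (1.77%) were in none of the 4. The promoter of DDT lies inside the annotation of GSTT2, which was at 0 in all libraries.

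The neighbouring genes tested were POP1, ERICH5, KIF4A, EIF1AD, NLGN2 and DDTL. No gene of these passed as lower in TNIP2 Pulldown than in Control Pulldown. Of all genes tested, 28.7% passed as lower and 30.6% as higher, and so few neighbours cannot be told apart from those shares. POP1, a protein of RNase P/MRP that adjoins HRSP12, rose to a mean of 536 in TNIP2 Pulldown, against 263 in Control Pulldown (log2 fold change 0.97, SE 0.25, limma adjusted p = 0.0038), and ERICH5 on the other side rose by 0.87 (SE 0.25, adjusted p = 0.0075). When libraries were centred on ribosomal protein genes both missed the threshold (limma adjusted p = 0.117 and 0.146). KIF4A, a kinesin of the mitotic chromosomes beside PDZD11, averaged 1345 in TNIP2 Pulldown and 765 in Control Pulldown (0.81, SE 0.14, limma adjusted p = 1.4e-04). EIF1AD beside BANF1 was at -0.01 (SE 0.22) and NLGN2, a synaptic adhesion gene beside TMEM256, at -0.29 (SE 0.29), neither past the test. Against TNIP2 Input, NLGN2 was lower by a log2 fold change of -0.76 (SE 0.29, limma adjusted p = 0.038), a call lost without the third TNIP2 Pulldown library (-0.70, limma adjusted p = 0.083). RefSeq lists 3 pseudogenes of HRSP12, 5 of BANF1, 1 of DDT and 2 of TMEM256, none of them a row of the table, so reads shared with them could not be separated.

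DDT has a close relative in MIF, the macrophage migration inhibitory factor, another tautomerase-fold cytokine. MIF had 2369, 1496 and 1750 normalized counts in TNIP2 Pulldown, 7329, 6531 and 6549 in TNIP2 Input, 10699, 9850 and 9289 in Control Pulldown, and 6949, 7289 and 6259 in Control Input. It was low in each TNIP2 Pulldown library and high in each Control Pulldown library. MIF was not used to choose the members and fell by 2.43 on the log2 scale in TNIP2 Pulldown against Control Pulldown (SE 0.17, limma adjusted p = 3.7e-08), as did 28.7% of genes tested at this threshold. Against TNIP2 Input MIF fell by 1.89 (limma adjusted p = 3.2e-07), as did 28.3% of genes tested. In the difference of enrichments, where 22.6% of genes tested passed as higher and 20.2% as lower, MIF was at -2.43 (limma adjusted p = 4.6e-06). MIF in Control Pulldown over Control Input was at 0.54 and did not pass (limma adjusted p = 0.877).

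DDTL, which overlaps DDT in the annotation and is a near copy of it, had 109, 80 and 55 normalized counts in TNIP2 Pulldown, 66, 63 and 68 in TNIP2 Input, 52, 54 and 53 in Control Pulldown, and 72, 62 and 72 in Control Input. It did not share the low TNIP2 Pulldown levels of DDT. Its log2 fold change against Control Pulldown was 0.55 (SE 0.24, limma adjusted p = 0.056). The call changed with 1 library, at 0.81 (limma adjusted p = 0.0040) without the third TNIP2 Pulldown library, and with the scaling. Because reads of DDT and DDTL may be split between the copies, the values of DDTL are uncertain.

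**Figure D4:**
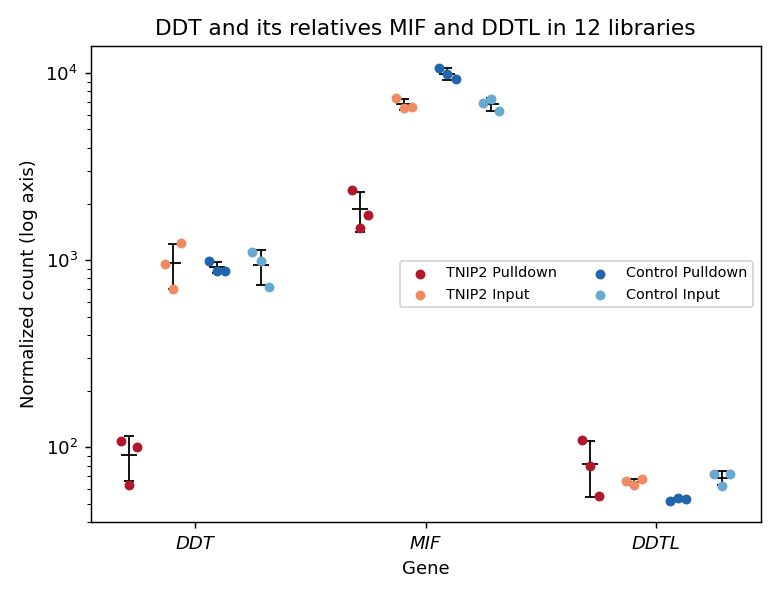
Normalized counts (log axis) of DDT, MIF and DDTL, with 1 point per library and bars for the mean ± SD of 3 libraries. TNIP2 Pulldown points are the lowest of their gene for DDT (63 to 108) and MIF (1496 to 2369), and for DDTL they spread over 55 to 109.

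A list around HRSP12 held 15 genes for the YTHDF readers of methylated RNA, the decay helicase UPF1 and the proteins of RNase P/MRP, of which 14 were tested. Of these, 9 rose in TNIP2 Pulldown over Control Pulldown, 4 fell and 1 did not pass, with a median of 0.81 beside 0.03 over all genes tested, where 30.6% rose and 28.7% fell. RPP38, a protein of RNase P, averaged 1634 ± 333 in TNIP2 Pulldown and 256 ± 81.1 in Control Pulldown (SD, n = 3 each), a log2 fold change of 2.71 (SE 0.24, limma adjusted p = 3.2e-07). YTHDF1 rose by 2.18 and the RNase P/MRP protein POP7 by 1.37, and UPF1 rose to a mean of 3293 in TNIP2 Pulldown, against 1138 in Control Pulldown. YTHDF2, the reader that HRSP12 has been described as linking, rose by 0.62 (SE 0.20, limma adjusted p = 0.016). It did not pass in the difference of enrichments (0.35, limma adjusted p = 0.34) or against TNIP2 Input (0.38, limma adjusted p = 0.115). POP4, another RNase P/MRP protein, had the lowest value of the list, -1.34. HRSP12, at -4.17, lay on the other side of zero from most of the list. Centred on ribosomal protein genes, 6 rose and 4 fell.

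Among BANF1's partners (LEM-domain proteins, the kinases VRK1 and VRK2 that phosphorylate BANF1, and lamins), 12 of 13 listed genes were tested, and 4 rose, 3 fell and 5 did not pass. The shares that rose (33.3%) and fell (25%) were close to the 30.6% and 28.7% of all genes tested. ANKLE2, a LEM-domain protein needed for BANF1 dephosphorylation, averaged 8267 ± 1130 in TNIP2 Pulldown and 2077 ± 109 in Control Pulldown (SD, n = 3 each; log2 fold change 1.98, SE 0.14, limma adjusted p = 4.9e-08). The kinases went opposite ways, VRK1 at 1.02 and VRK2 at -1.83. EMD, which encodes emerin, fell by 1.26. The list's median was 0.31, but it turned to -0.13 under quantile normalization (3 rose, 5 fell) and -0.02 when centred on ribosomal protein genes, so no direction can be given for it.

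Of 11 listed partners of PDZD11, 10 were tested, with 3 that rose, 3 that fell and 4 that did not pass, and a median of -0.13. PLEKHA5, a relative of PLEKHA7, averaged 5230 ± 2315 in TNIP2 Pulldown and 463 ± 20.8 in Control Pulldown (SD, n = 3 each; log2 fold change 3.39, SE 0.25, limma adjusted p = 7.1e-08). PLEKHA7, which recruits PDZD11 to junctions, rose by 1.78. The vitamin transporter SLC5A6 fell by 1.85 and the tetraspanin TSPAN33 by 0.81, while ATP7A was at -0.19 and did not pass. The shares that rose (30%) and fell (30%) were close to the 30.6% and 28.7% of all genes tested. The counts therefore do not set these partners apart. When centred on ribosomal protein genes, 2 rose and 4 fell.

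TMEM256 belongs by name to the numbered TMEM genes, a group joined by predicted membrane spans and not by function. Of 188 tested among 251, 28 (14.9%) rose in TNIP2 Pulldown over Control Pulldown and 89 (47.3%) fell, beside 30.6% and 28.7% of all genes tested. Their median was -0.55. TMEM147, a component of the translocon, averaged 158 ± 34.7 in TNIP2 Pulldown and 1473 ± 101 in Control Pulldown (SD, n = 3 each), a log2 fold change of -3.23 (SE 0.19, limma adjusted p = 1.3e-08). TMEM160 fell by 3.21, TMEM254 by 2.96 and TMEM242 by 2.41, while TMEM108 rose by 2.81. Centred on ribosomal protein genes, 20 rose and 110 fell. Of the 224 genes tested in these 4 lists, 0 passed limma's test in Control Pulldown against Control Input and 0 in TNIP2 Input against Control Input, with 4 and 2 at an unadjusted p under 0.05. Of all genes tested, 0.137% passed in the first of these comparisons and 0.00684%, which is TNIP2 alone, in the second.

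Of 26 relatives, partners and neighbours named here, YTHDF2 not counted, 25 kept their call in TNIP2 Pulldown against Control Pulldown without the third TNIP2 Pulldown library. The exception was DDTL, and all 26 kept their call without the third TNIP2 Input library. Many of the 26 were named for a small p in this same comparison, which favoured a kept call. Without the third TNIP2 Pulldown library the counts that rose and fell were 8 and 4 for the list around HRSP12, 6 and 3 for the partners of BANF1, 3 and 3 for the partners of PDZD11, and 39 and 95 for the numbered TMEM genes. The median for the partners of PDZD11 then turned to 0.061. PLEKHA5 was at 3.77 in that fit. Without the third TNIP2 Input library the differences of enrichments were -3.81 for HRSP12, -3.19 for DDT, -3.17 for TMEM256 and -3.20 for PDZD11, and without the third TNIP2 Pulldown library they were -4.03, -3.48, -2.97 and -3.33 in the same order, with BANF1 at -3.77.

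**Figure D5:**
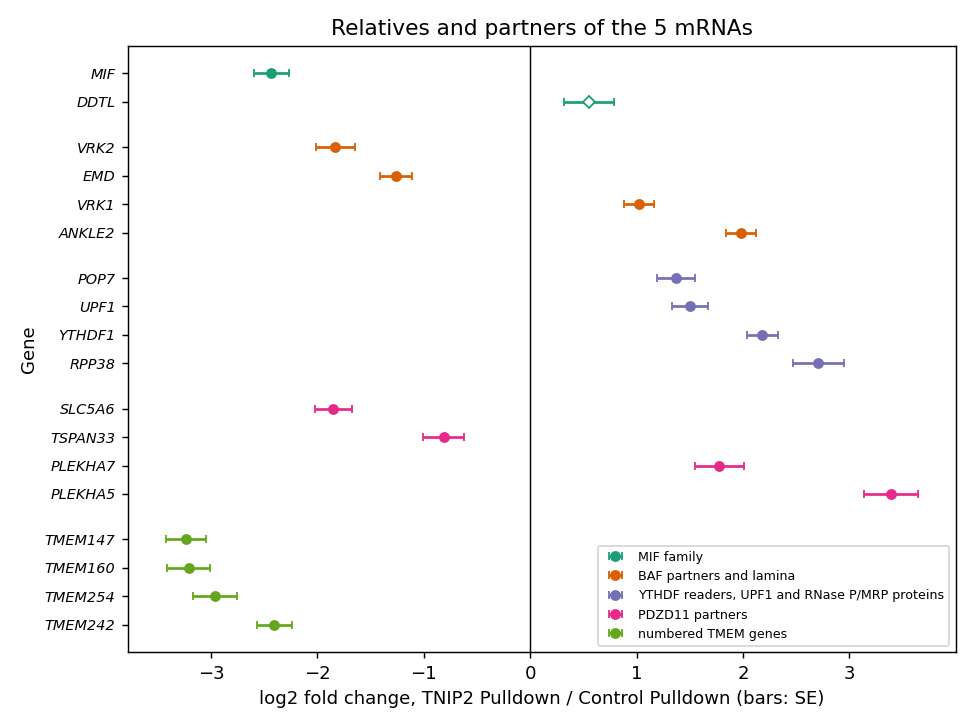
Log2 fold changes of TNIP2 Pulldown over Control Pulldown (points, with SE bars) for named relatives and partners of the 5 mRNAs, filled where the limma adjusted p is under 0.05. MIF (-2.43) and TMEM147 (-3.23) lie on the side of the 5 mRNAs, and PLEKHA5 (3.39) and RPP38 (2.71) on the other.

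By Pearson's r of log2 values over the 12 libraries, the genes most like HRSP12 were APRT, CLPP and COQ5 (r = 0.998 each), which encode a purine salvage enzyme, a mitochondrial protease and an enzyme of coenzyme Q synthesis. The closest to DDT were NUBP2, SMIM7 and TMEM147 (0.998, 0.998 and 0.997), to TMEM256 they were WDR61, GALK1 and RER1 (0.999, 0.998 and 0.997), and to PDZD11 CLPP, ATPAF1 and ACTR10 (0.996, 0.996 and 0.995). BANF1 had less close matches in HNRNPAB, SORBS3 and UPF3B (0.985, 0.973 and 0.971). Every gene named as most like a member had a smaller loss than that member in TNIP2 Pulldown over Control Pulldown. The log2 fold change was only -0.95 for HNRNPAB, -1.51 for ACTR10, -1.55 for NUBP2 and -1.93 for RER1. The largest losses among these genes were those of TMEM147 (-3.23) and APRT (-2.91). All 12 libraries share their scaling and the 3 TNIP2 Pulldown libraries stand far from the other 9, which alone gives a high r, so these values only describe likeness. Among the members themselves r was 0.980 to 0.995 for HRSP12, DDT, TMEM256 and PDZD11, and 0.824 to 0.884 for BANF1 with any of them.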

How the data were processed

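RNA sequencing libraries from 12 samples were analysed. TopHat2 2.0.14, DESeq2 1.6.3 and the build hg19 are named in the submitters' processing notes; which gene annotation was used is not stated there. The table of normalized counts that the authors deposited holds whole numbers and was treated as a score, not as raw counts, since the authors had already scaled the libraries. The deposited FPKM table gives the same genes per exonic length. Column letters C, I and P stand for Control, Input and Pulldown in the labels, which leaves F for the fragment. Whole reads and exonic lengths were recovered from the FPKM steps: of 1663 to 3822 low values checked per library, at least 93.6% came out whole within 0.1 read. One read was worth 0.511 to 2.86 normalized counts.

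Genes with at least 10 in at least 3 libraries (14627) were fitted as log2(normalized count + 1) in limma 3.58.1 (R 4.3.3) with all 12 libraries, group means, 8 residual degrees of freedom and a trended prior. Fold changes are on that scale, which understates the change of low genes. P-values were adjusted by Benjamini-Hochberg over all genes tested, with a threshold of 0.05. On simulated data of 14259 genes for TNIP2 Pulldown against Control Pulldown, 100 of 100 genes at 10-fold and 97 of 100 at 2-fold were recovered, with 23 unchanged genes called. The simulation changed only those genes, none of them low, equally in both directions and with the same spread for every gene. In the data 30.6% of genes tested were called higher and 28.7% lower, so the simulation does not give their error rates. The members and lists were chosen with earlier results of these data known. Genes named were the members, the MIF family, up to 4 genes of each other list with the smallest p against Control Pulldown, the neighbours in RefSeq, the 3 protein-coding genes on each side of 10-fold and the 3 most like each member. POP4, YTHDF2, ATP7A, TMEM108, the other protein-coding genes past the 10-fold limit and the genes beside the limit for the difference of enrichments were added after values were seen. Alternatives were the FPKM table, other pseudocounts, filters and scalings (quantile, centring on ribosomal protein genes, voom on recovered reads with trimmed-mean factors), only the groups compared, leaving out each library and a replicate block. Same-numbered TNIP2 Pulldown and TNIP2 Input libraries deviated together (r = 0.369, 0.458 and 0.497), which pairs them from the data; same-numbered Control Pulldown and Control Input libraries did so weakly (0.0744 to 0.0774). The NRF1 and YY1 letters searched in promoters were shortened after longer forms of both had been found in none of the 4 windows. A further gene of the embryonic kidney and neural list is not reported here and is left out of that list's sum.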

Additional observations from a re-analysis of the deposited data

Results flagged for a closer look

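For HRSP12, BANF1 and MIF, every TNIP2 Pulldown library lay below every TNIP2 Input library, as for 28.1% of genes tested. For the same genes every Control Pulldown library lay above every Control Input library, as for 5.83% of genes tested. The rise with the tag alone was not tested for HRSP12 (log2 fold change 0.11, SE 0.19) and BANF1 (0.79, SE 0.40). For MIF it did not pass (0.54, limma adjusted p = 0.877), so no reversal of direction is established. The differences of enrichments were -3.91 for HRSP12 and -3.51 for BANF1, and these were not tested because they took part in choosing the genes. For MIF the difference was -2.43 (limma adjusted p = 4.6e-06).

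Among relatives and partners, many genes passed limma's test of the difference of enrichments: 21 higher and 74 lower of 188 numbered TMEM genes, 7 and 3 of 14 in the list around HRSP12, 4 and 3 of 12 partners of BANF1, and 3 and 2 of 10 partners of PDZD11. The values below are those of up to 4 genes per list with the smallest p in TNIP2 Pulldown against Control Pulldown, all of which passed with and without the third TNIP2 Pulldown or TNIP2 Input library. That comparison is a part of the difference of enrichments, so the choice of these genes favoured their passing. Pulldown over Input was lower with the fragment than with the tag alone for TMEM160 (-3.22), TMEM147 (-3.11), TMEM254 (-2.75), TMEM242 (-2.28), SLC5A6 (-1.90), VRK2 (-1.82), EMD (-1.41) and TSPAN33 (-0.94). It was higher with the fragment for PLEKHA5 (3.54), RPP38 (2.42), ANKLE2 (1.97), YTHDF1 (1.84), PLEKHA7 (1.52), UPF1 (1.37), POP7 (1.30) and VRK1 (1.18). Over all genes tested, 22.6% passed as higher and 20.2% as lower.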

How the results depend on the processing

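Each of the 5 mRNAs stayed lower in TNIP2 Pulldown than in Control Pulldown and TNIP2 Input, and in the difference of enrichments, under every alternative run. Because the 5 were chosen for large losses in the same TNIP2 Pulldown libraries, a kept sign is no separate support. Centring on ribosomal protein genes moved the member medians to -3.67, -3.71 and -3.97 for these 3 measures, and the medians of all genes by -0.33, -0.47 and -0.58. Relative to all genes the member medians were -3.37, -3.24 and -3.41 with and without that centring. This was fixed in advance, because centring shifts every gene of a library equally. The same values were -3.32, -3.20 and -3.35 under quantile normalization and -3.44, -3.28 and -3.44 with voom. That centring called 2966 genes higher and 5340 lower in TNIP2 Pulldown against Control Pulldown, beside 4481 and 4201, and the share of calls that were higher was 28.8% against TNIP2 Input and 23.1% for the difference, beside 51.3% and 52.7%. It moved the median of all genes by 0.11 in Control Pulldown against Control Input and 0.25 in TNIP2 Input against Control Input, and voom moved the difference by -0.11. With each library left out, the member medians ranged over -3.51 to -3.12 against Control Pulldown, -3.48 to -3.11 against TNIP2 Input and -3.48 to -3.15 for the difference. A pseudocount of 8 gave -3.90 for HRSP12 against Control Pulldown. Genes called in Control Pulldown against Control Input numbered 31 under quantile normalization, 48 with only the groups compared and 12 to 32 with a library left out (12 without the first or second Control Input or the first Control Pulldown library, 32 without the first TNIP2 Pulldown library). Untested or uncalled values near zero changed sign, the cause being not tested: DDT in Control Pulldown against Control Input gave 0.10 when centred on ribosomal protein genes and -0.20 to 0.12 with a library left out, PDZD11 -0.043 to 0.11. In TNIP2 Input against Control Input, PDZD11 gave 0.10 when centred so, and DDT -0.17 to 0.23 with a library left out. EIF1AD in TNIP2 Pulldown against Control Pulldown gave 0.046 under quantile normalization and -0.17 to 0.28 with a library left out. DDTL passed there with the FPKM table (adjusted p = 0.041) and quantile normalization (0.044), and was at 0.22 (0.39) when centred on ribosomal protein genes. The replicate block called 8976 genes in TNIP2 Pulldown against Control Pulldown, 8813 against TNIP2 Input and 6670 in the difference, with member medians of -3.33, -3.24 and -3.39, and for 26 named relatives, partners and neighbours it changed no call in the first 2 comparisons and 1 in the difference (ERICH5, adjusted p = 0.0505 with the block and 0.0492 without). Within the 6 TNIP2 libraries alone, a block added after seeing the data called 9140 genes. Depth limits the members most in TNIP2 Pulldown, where single libraries held as few as 29 reads of HRSP12.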
